A study of Capra hircus with 12 samples.

Results

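The miRNAs described here are the mature products of 3 related hairpin precursors, miR-28, miR-151 and miR-708, in the cashmere-producing secondary hair follicles (SHFs) of goats. Members were chosen by name, as every miRNA listed as chi-miR-28, chi-miR-151 or chi-miR-708 in either arm. This gave 6 of the 376 miRNAs listed: chi-miR-151-5p, chi-miR-151-3p, chi-miR-28-5p, chi-miR-28-3p, chi-miR-708-5p and chi-miR-708-3p. All 6 passed the filter on low counts (above 5 CPM, counts per 1000000, in at least 2 libraries), which left 300 miRNAs. The group was chosen from a measured pattern, a rise of miR-151-3p without miR-151-5p between May and September, and the question was whether the related precursors share it. Differences between May and September are therefore given as a description, without a test. The phases were tested by catagen against telogen, in a fit whose estimate of spread also used the May and September libraries, and the sexes were compared over all months.

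Small RNA was sequenced from SHFs separated under a dissecting microscope from the scapular skin of Liaoning cashmere goats, all 1.5 years old, with no treatment of the animals named in the labels. There were 12 libraries, 1 from female and 1 from male goats in each of 6 months. The months fall into telogen, the resting phase (February and March, n = 4), early anagen, when growth starts (May, n = 2), mid-anagen (September, n = 2) and catagen, the regressing phase (November and December, n = 4). The study's methods name several goats of each sex per time point and do not say how they were combined, so an SD or a p-value measures the spread between libraries, which also covers both sexes and, in telogen and catagen, both months.

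A miRNA precursor is a hairpin cut by Dicer into a duplex of a 5p and a 3p strand. As a rule one strand is loaded into an Argonaute protein and guides it to target mRNAs, while the other strand is degraded. The ratio of the mature arms thus reports which strand accumulates, and since both arms are counted in the same library it does not depend on how libraries are scaled. The precursors miR-28, miR-151 and miR-708 have been described as derived from LINE-2 transposable elements, and the 5p arms of miR-28 and miR-708 share a seed, the stretch that pairs with targets. In the goat RefSeq annotation of assembly ARS1.2, MIR151 lies within PTK2, which encodes focal adhesion kinase, and MIR28 lies within LPP, which encodes a focal adhesion protein. MIR708 lies within none of the listed protein-coding genes and is followed by TENM4, a teneurin. The mature sequences are not shown because no sequence table was used here, and reads that could match more than 1 of these related sequences could not be checked.

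Levels are given as TPM, which in these files is the count of a miRNA per 1000000 miRNA counts of its library, or as TMM CPM, the same after edgeR's trimmed mean scaling. Libraries held between 3135292 and 5788032 miRNA counts, with a median of 4469051. The TMM factors ran from 0.813 to 0.916 in catagen and September and from 1.01 to 1.29 in telogen and May, so TMM raises catagen and September levels relative to TPM and lowers the others. The female and the male library of a month differed far beyond counting noise, by a chi-square of 70.02 to 667 per degree of freedom over all miRNAs. No such pair thus looked like 1 library deposited again. Libraries of different months were not compared in this way.

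By mean TPM all 6 arms were among the top 108 of the 376 miRNAs listed. Over the 12 libraries miR-151-3p had the highest mean TPM of the family (3086, place 36 of 376), followed by miR-708-3p (2033, place 43), miR-708-5p (912, place 59), miR-28-3p (887, place 60), miR-151-5p (223, place 95) and miR-28-5p (138, place 108). The 3p strand was thus the more abundant arm of each of the 3 precursors, which held for 35 of the 82 precursors with both arms tested. The summed TPM of the 6 arms (mean ± SD) was 4952 ± 288 in May and 8416 ± 1225 in September (n = 2 each), and 6758 ± 1055 in telogen and 8398 ± 783 in catagen (n = 4 each).

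All 3 3p arms had their lowest TPM in the May libraries, and miR-151-3p varied most over the year. For miR-151-3p the TPM was 3085 in the female and 2472 in the male library of February, 1893 and 2063 in March, 1475 and 1414 in May, 4991 and 3579 in September, 4212 and 4828 in November, and 3064 and 3959 in December. Both May libraries lay below all others, and the female December library lay just under the female February library. By monthly mean the order was November, September, December, February, March and May. The libraries of November and September, of September and December, and of December and February overlapped in TPM, while those of February and March and of March and May did not.

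For miR-708-3p the TPM was 2512 in the female and 2199 in the male library of February, 1559 and 1474 in March, 1335 and 1090 in May, 2419 and 2022 in September, 2300 and 2553 in November, and 2291 and 2641 in December. Here February stood with September, November and December rather than with March: the monthly means of December, November, February and September (2466, 2426, 2356 and 2220) each overlapped with the next, and March (1517) and May (1213) lay below without overlap. For miR-28-3p the TPM was 820 and 915 in February, 946 and 825 in March, 749 and 722 in May, 1036 and 1025 in September, 844 and 1108 in November, and 832 and 828 in December, female library first. Its range was narrow, and in TPM only May was separated from the month next to it in order.

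**Figure D1:**
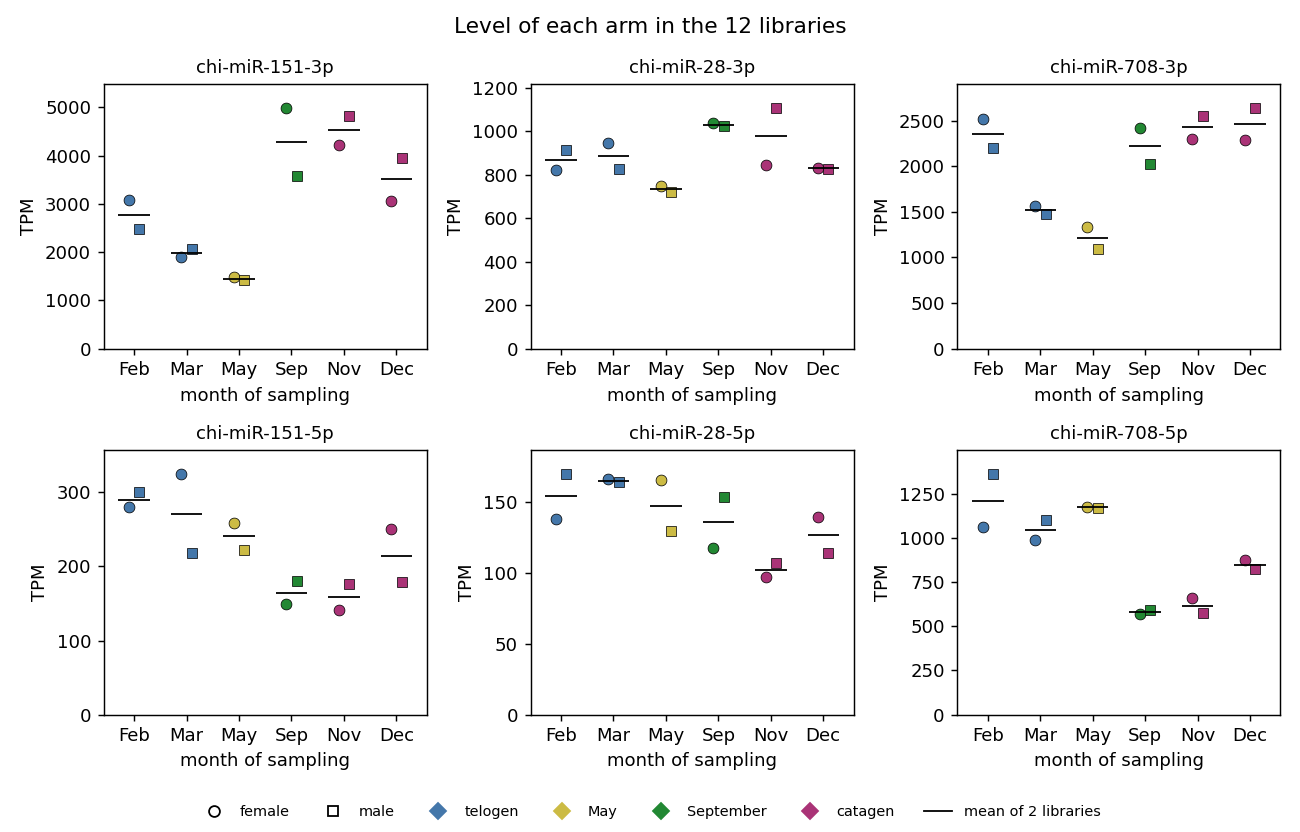
TPM of each arm (vertical axis, starting at 0, with its own scale in each panel) in the 12 libraries by month of sampling, 3p arms above and 5p arms below. Circles are female and squares male libraries, colours are the 4 groups, and lines are the mean of 2 libraries. The 3p arms have their lowest TPM in May, while miR-708-5p has its lowest in September (569 and 590) and November.

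The 5p arms did not follow the 3p arms. For miR-708-5p the TPM was 1058 in the female and 1362 in the male library of February, 987 and 1102 in March, 1173 and 1171 in May, 569 and 590 in September, 660 and 573 in November, and 873 and 823 in December. The 6 libraries of telogen and May lay at 987 or above and the 6 of September and catagen at 873 or below, with no overlap in TPM, which was so in this direction for 52 of the 300 miRNAs (17.3%). In TMM CPM the same arm gave 894 to 1190 in telogen, 910 and 940 in May, 646 and 671 in September, and 676 to 953 in catagen, so telogen and catagen then overlapped. Its monthly order in TMM CPM was February, December, May, March, November and September.

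For miR-151-5p the TPM was 280 and 300 in February, 325.2 and 218 in March, 259 and 223 in May, 150 and 180 in September, 142 and 176 in November, and 251 and 178 in December, female library first. Every month overlapped with the next one in order. For miR-28-5p, the least abundant arm, the TPM ran from 97.2 in the female November library to 170 in the male February library. It was 165 and 129 in May and 118 and 153 in September, so these months overlapped. Counts of miR-28-5p were 336 to 843 per library, far above the 3 counts taken as the floor of detection.

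From telogen to catagen, 3p arms rose and 5p arms did not pass the test. With edgeR's quasi-likelihood test over all 300 miRNAs, miR-151-3p was 1.11 higher in catagen on the log2 scale (standard error 0.22, adjusted p = 0.00249), miR-708-3p was 0.68 higher (standard error 0.20, adjusted p = 0.0192) and miR-28-3p was 0.40 higher (standard error 0.14, adjusted p = 0.0384). Of all miRNAs tested, 63 (21%) rose at an adjusted p under 0.05. With the added requirement of a 2-fold change only miR-151-3p of the 6 members was called, against 32 of 300 miRNAs (10.7%) in either direction, 13 of them higher.

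The 5p arms gave log2 differences of -0.26 for miR-151-5p (standard error 0.19, adjusted p = 0.284), -0.13 for miR-28-5p (standard error 0.14, adjusted p = 0.478) and -0.27 for miR-708-5p (standard error 0.13, adjusted p = 0.134). The median over the 3 members' 3p arms was 0.68 and over their 5p arms -0.26. Over the 82 precursors with both arms it was 0.21 for 3p arms and -0.09 for 5p arms, and over all 300 miRNAs it was near 0 (-0.00064). TMM scaling tends to place this last median near 0, and it was -0.35 with library totals.

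In TMM CPM the libraries of telogen and catagen did not overlap for miR-151-3p (1675 to 3068 against 3344 to 5702) or for miR-708-3p (1196 to 2499 against 2500 to 3055), which was so for 90 of the 300 miRNAs (30%). The separation of miR-708-3p was 1 CPM wide, and in TPM both of these 3p arms overlapped between the phases. For miR-28-3p the groups overlapped by 1 pair of libraries in TMM CPM, 669 to 909 in telogen and 908 to 1309 in catagen. Telogen and catagen levels also differed from month to month: miR-151-3p was 2614 TMM CPM in February and 1748 in March, and 5442 in November and 3961 in December.

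These single-arm results depended on scaling. When libraries were scaled by their totals instead of by TMM, the median of all miRNAs from telogen to catagen moved to -0.35, the rise was 0.76 for miR-151-3p (adjusted p = 0.00725), 0.34 for miR-708-3p (adjusted p = 0.121) and 0.04 for miR-28-3p (adjusted p = 0.778), and all 3 5p arms then fell, by 0.59 for miR-151-5p (adjusted p = 0.0263), 0.48 for miR-28-5p (adjusted p = 0.0305) and 0.62 for miR-708-5p (adjusted p = 0.00752), as edgeR gave them. With this scaling 48 miRNAs were called, 5 of them higher, where TMM gave 13 of 32. The scaling thus decided which arms passed the test, except miR-151-3p, which passed it in both. Its rise was under the 2-fold limit with library totals, so its call was lost with that scaling. The ratio between the arms of a precursor was not affected. Among single libraries, the rise of miR-151-3p was under 2-fold without the female March library (0.96, adjusted p = 0.0089), and that of miR-708-3p missed the threshold without that library (0.53, adjusted p = 0.0645) or without the male November library (0.65, adjusted p = 0.0508). The rise of miR-28-3p missed it in 8 of the 12 fits that left out a library (0.28 to 0.46 over all 12, adjusted p = 0.0248 to 0.112) and in 6 of 8 other settings.

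**Figure D2:**
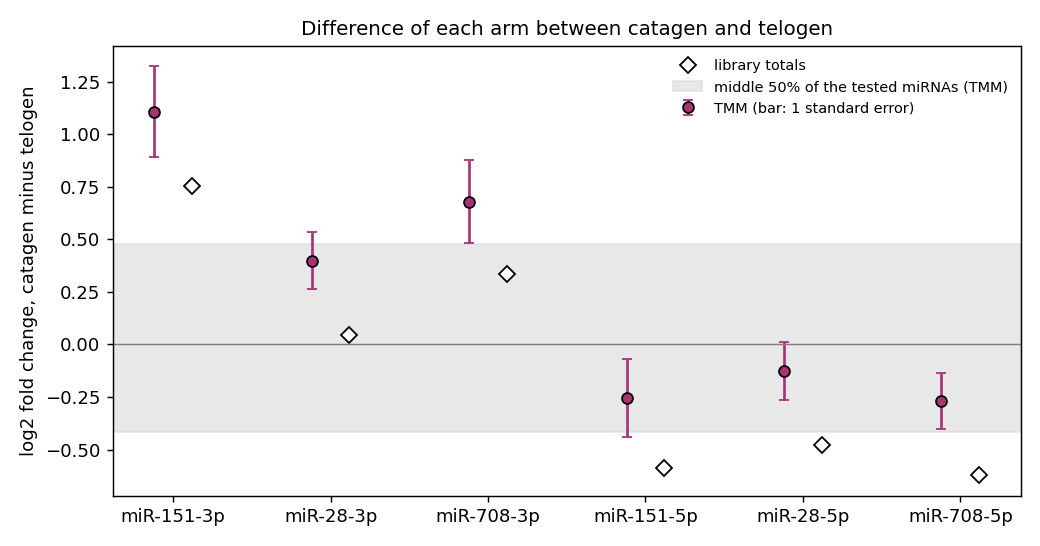
Log2 fold change from telogen to catagen (vertical axis) of the 6 arms, as filled points with TMM scaling (bars are 1 standard error of the edgeR fit) and as open diamonds with library totals. The grey band is the middle 50% of the 300 tested miRNAs with TMM. With either scaling the 3p arms lie above and the 5p arms below 0, and library totals place all 6 lower (miR-708-3p at 0.34 in place of 0.68, miR-708-5p at -0.62 in place of -0.27).

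The arm ratio does not carry this dependence. In miR-151 the 3p arm made up 85.1% and 86.4% of the counts of the precursor in May, 97.1% and 95.2% in September, 92.4% to 96.7% in catagen and 85.3% to 91.7% in telogen. As a log2 ratio of 3p to 5p counts this was (mean ± SD) 2.59 ± 0.11 in May and 4.69 ± 0.53 in September (n = 2 each), and 3.07 ± 0.39 in telogen and 4.44 ± 0.58 in catagen (n = 4 each). The ratio itself ran from 5.70 in the female May library to 33.4 in the female September library.

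The precursor miR-708 went from nearly equal arms to a clear excess of 3p. Its 3p share was 53.2% in the female May library (95% Wilson interval 52.3 to 54.2) and 48.2% in the male May library (47.1 to 49.4), so the more abundant arm differed between them. It was 81.0% and 77.4% in September, 72.4% to 81.7% in catagen and 57.2% to 70.4% in telogen. These intervals cover counting error only. The log2 ratio was (mean ± SD) 0.04 ± 0.20 in May and 1.93 ± 0.22 in September (n = 2 each), and 0.75 ± 0.35 in telogen and 1.76 ± 0.32 in catagen (n = 4 each). By month it was highest in November (1.98) and September (1.93), which overlapped, and it was lower, in steps without overlap, in December (1.54), February (0.97), March (0.54) and May.

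In miR-28 the shift was smaller. The 3p share was 81.9% and 84.8% in May, 89.8% and 87.0% in September, 85.7% to 91.2% in catagen and 83.4% to 85.6% in telogen. The log2 ratio was (mean ± SD) 2.33 ± 0.21 in May and 2.94 ± 0.28 in September (n = 2 each), and 2.46 ± 0.11 in telogen and 2.98 ± 0.34 in catagen (n = 4 each). All 3 precursors had their highest monthly mean ratio in November, followed by September, December, February, March and May in that order. How many other precursors share this order was not counted, so it is not shown to be particular to the family. For miR-151 the order includes the May and September values on which the family was chosen. In miR-151 and miR-28 neighbouring months in this order overlapped, except December and February.

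**Figure D3:**
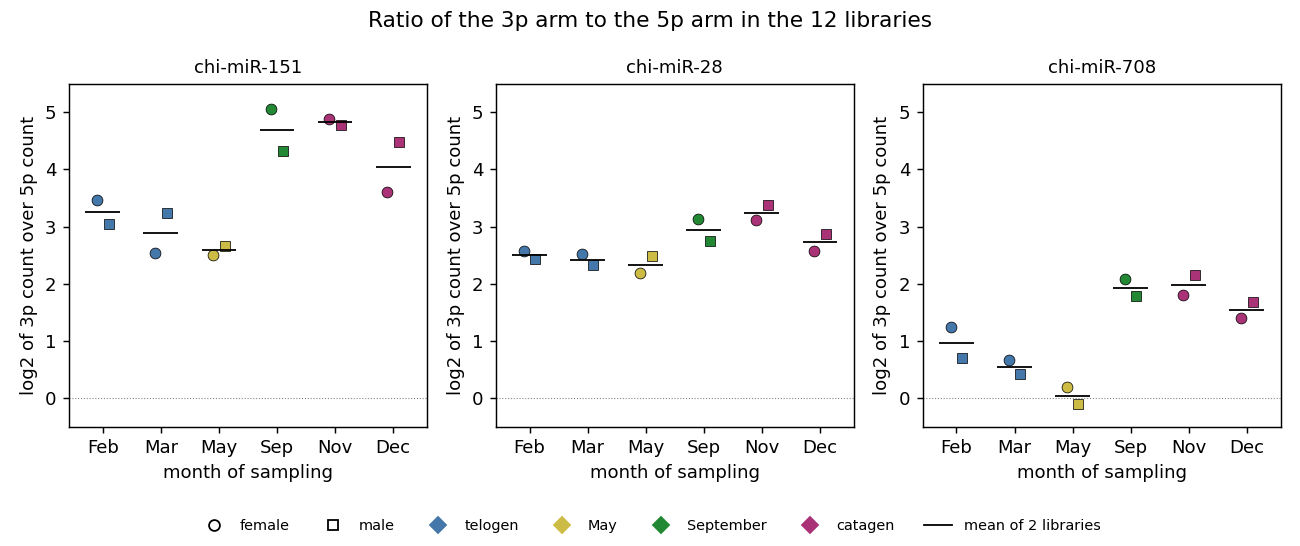
Log2 ratio of 3p to 5p counts (vertical axis, the same in each panel) of miR-151, miR-28 and miR-708 in the 12 libraries by month. Circles are female and squares male libraries, lines are the mean of 2 libraries, and the dotted line marks equal arms. Monthly mean ratios are highest in September and November in all panels, and the miR-708 libraries of May sit at 0.19 and -0.10, about the line.

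In the telogen and catagen libraries the arm ratio rose in miR-151 and miR-708. The May to September pattern behind the choice of the family did not use these libraries. Earlier results of these data were, however, known when members were chosen. With limma over 82 precursors the log2 ratio of miR-151 was 1.37 higher in catagen (standard error 0.28, adjusted p = 0.00114), a 2.58-fold change, and that of miR-708 was 1.003 higher (standard error 0.23, adjusted p = 0.00212), a 2.004-fold change. That of miR-28 was 0.52 higher (standard error 0.22) and did not pass the threshold (adjusted p = 0.0564). Shifts of this kind were common: 40 of 82 precursors (48.8%) passed the test, 23 (28%) of them with a rising 3p share, and the median shift over all 82 was 0.17 with a median size of 0.59. Telogen and catagen ratios did not overlap in any of the 3 member precursors, which was so for 29 of the 82 (35.4%). For miR-28 the gap was very narrow, from 2.573 in the female February library to 2.580 in the female December library.

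Among the shifts of the 82 precursors, ordered from the strongest rise, miR-151 ranked 4, miR-708 ranked 11 and miR-28 ranked 26. The precursors with larger rises than miR-151 were miR-195 (2.11, adjusted p = 2.1e-05), miR-30e (1.67, adjusted p = 0.000152) and miR-106b (1.67, adjusted p = 2.18e-05) in the same limma fit. The strongest falls were those of miR-27a (-1.66, adjusted p = 2.3e-05), let-7i (-1.56, adjusted p = 0.00159) and miR-369 (-1.20, adjusted p = 0.00159). Some of these ratios rest on a scarce arm. The mean TPM of miR-195-5p was 5.55 in telogen and 2.47 in catagen, and that of let-7i-3p was 11.8 and 4.69. For miR-369-5p it was 2.2 in telogen.

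Leaving out any 1 library kept the call for miR-151 (1.19 to 1.64) and miR-708 (0.87 to 1.17). The shift of miR-28 was 0.39 to 0.66 under the same omissions and passed the threshold in the fit without the female December library (adjusted p = 0.0172), whose miR-28 ratio was the lowest of catagen.

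The shifts of the precursors were then compared with each other over the 8 telogen and catagen libraries. The rise of miR-151 exceeded that of miR-28 by 0.84 on the log2 scale (exact two-sided permutation test, p = 0.0286, adjusted p = 0.0429 over the 3 pairs compared). That of miR-708 exceeded that of miR-28 by 0.48 (exact permutation p = 0.0286, adjusted p = 0.0429). The value 0.0286 is the smallest p that 4 against 4 libraries can give. The rises of miR-151 and miR-708 differed by 0.36, which did not pass the test (exact permutation p = 0.257, adjusted p = 0.257): the log2 ratio of miR-151 minus that of miR-708 was 2.22 to 3.09 in catagen and 1.88 to 2.82 in telogen, and these ranges overlapped. With any 1 of the 8 libraries left out the differences were 0.65 to 0.98, 0.41 to 0.61 and 0.22 to 0.53, in the order given. The first and second then no longer passed after adjustment (adjusted p = 0.0857 in each of the 8 exact permutation tests, with unadjusted values of 0.0286 or 0.0571).

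From May to September all 3 precursors shifted to 3p, miR-151 and miR-708 by more than miR-28. The change of the log2 ratio was 2.10 for miR-151, on which the family was chosen, 1.89 for miR-708 and 0.61 for miR-28. Of all 82 precursors 51 shifted to 3p, and the median shift was 0.27. The median size of the shift was 0.68, so that of miR-28 was not unusual. May and September libraries did not overlap in any of the 3 member precursors, which was so for 57 of 82 precursors (69.5%). The arm-level changes in the edgeR fit were 2.11, 1.40 and 1.01 for the 3p arms of miR-151, miR-708 and miR-28, and -0.03, -0.49 and 0.40 for their 5p arms in the same order. May and September libraries did not overlap in TMM CPM for 225 of 300 miRNAs (75%), so a separation between these 2 pairs of libraries was the usual case.

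With library totals the May to September changes were 1.57, 0.87 and 0.49 for the 3p arms and -0.55, -1.02 and -0.12 for the 5p arms of miR-151, miR-708 and miR-28, and the median of all miRNAs moved from 0.07 to -0.46. Under both scalings miR-708-5p was lower in September, and miR-28-5p changed sign. The sum of both arms behaved differently between precursors. In TPM it went from 1685 ± 68.5 in May to 4450 ± 977 in September for miR-151 (SD, n = 2 each), from 2384 ± 175 to 2800 ± 266 for miR-708 and from 883 ± 44.5 to 1166 ± 17.8 for miR-28. In telogen and catagen the sum was 3064 ± 581 and 3178 ± 210 TPM for miR-708, 1036 ± 74.0 and 1017 ± 133 for miR-28, and 2659 ± 532 and 4202 ± 697 for miR-151 (SD, n = 4 each). The TPM of the miR-708 and miR-28 arms together was thus close in these phases in the mean, while for miR-151 it was higher in catagen, and none of these sums was tested. In TMM CPM all 3 sums were higher in catagen, at 3698 ± 230.1 against 2801 ± 656 for miR-708, 1185 ± 171 against 943 ± 109 for miR-28 and 4917 ± 981 against 2438 ± 649 for miR-151 (SD, n = 4 each), without a test.

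**Figure D4:**
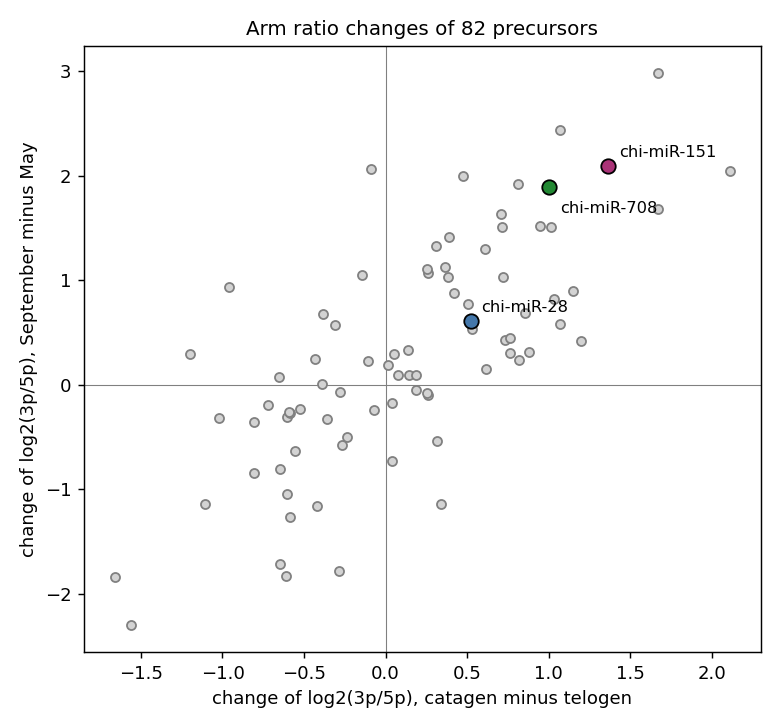
Change of the log2 ratio of 3p to 5p counts in each of 82 precursors, from telogen to catagen (horizontal axis) and from May to September (vertical axis), 1 point per precursor. The 4 groups share no library between the axes. The coloured points miR-151 (1.37, 2.10) and miR-708 (1.003, 1.89) lie in the upper right of the cloud and miR-28 (0.52, 0.61) nearer its middle.

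September and catagen ratios were close in the family, as in most precursors. Over all 82 precursors the median size of the difference was 0.19 for September minus catagen and 0.45 for May minus telogen. The September minus catagen differences were 0.25 for miR-151, 0.18 for miR-708 and -0.04 for miR-28. The May minus telogen differences were -0.48, -0.71 and -0.13 in the same order, and for miR-708 the May libraries did not overlap with those of telogen, which was so for 35 of the 82 precursors (42.7%). These values share libraries with the contrasts above and are given without a test.

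The sexes were compared in a fit with a term for month. The log2 differences of male minus female were -0.12 for miR-151-3p, -0.20 for miR-151-5p, -0.05 for miR-28-3p, -0.07 for miR-28-5p, -0.17 for miR-708-3p and -0.05 for miR-708-5p, with adjusted p between 0.559 and 0.912 in edgeR's quasi-likelihood test. None of the 300 miRNAs passed it (0%), and 34 had an unadjusted p under 0.05. For the arm ratios the differences were 0.07 for miR-151, 0.02 for miR-28 and -0.13 for miR-708 (adjusted p = 0.9747 for each in limma), and none of the 82 precursors passed (0%), with 2 at an unadjusted p under 0.05. The rise of the arm ratio from telogen to catagen had the same direction in both sexes, at 1.25 in female and 1.48 in male libraries for miR-151, 0.64 and 1.36 for miR-708, and 0.30 and 0.74 for miR-28. Its difference between the sexes did not pass the interaction test in any of the 3 (adjusted p = 0.644 to 0.85 in limma).

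Over the 12 libraries the correlations between 3p arms were higher than those between 5p arms. Pearson's r of log2 TMM CPM was 0.96 between miR-151-3p and miR-708-3p (Spearman's rho 0.93), 0.93 between miR-151-3p and miR-28-3p (rho 0.93) and 0.87 between miR-28-3p and miR-708-3p (rho 0.82). Between 5p arms r was 0.58 for miR-151-5p and miR-28-5p (rho 0.55), 0.56 for miR-151-5p and miR-708-5p (rho 0.63) and -0.03 for miR-28-5p and miR-708-5p (rho 0.13). Within a precursor the arms gave an r of -0.12 for miR-151 (rho -0.09), 0.38 for miR-28 (rho 0.17) and -0.31 for miR-708 (rho -0.14). The libraries share their scaling and group structure, and these values are descriptions. They include the May and September libraries, whose miR-151 values were used to choose the family. The closest miRNAs outside the family reached an r of 0.95 to 0.97 with these 3p arms. A typical r between 3p arms of other precursors was not taken for comparison.

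The other miRNAs most like each 3p arm in this measure were, for miR-151-3p, miR-30e-3p (r = 0.97, rho = 0.98), miR-3431-3p (r = 0.96, rho = 0.93) and miR-378-3p (r = 0.95, rho = 0.94). For miR-708-3p they were miR-218 (r = 0.97, rho = 0.94), miR-3431-3p (r = 0.97, rho = 0.92) and miR-1271-5p (r = 0.95, rho = 0.92), and for miR-28-3p they were miR-30a-3p (r = 0.97, rho = 0.93), miR-30e-3p (r = 0.95, rho = 0.93) and miR-3432-5p (r = 0.95, rho = 0.98). Of these, miR-30e-3p and miR-3431-3p were each named for a pair of members. The nearest to the 5p arms were miR-143-5p for miR-151-5p (r = 0.90, rho = 0.82), miR-190a-5p for miR-708-5p (r = 0.81, rho = 0.80) and miR-223-3p for miR-28-5p (r = 0.76, rho = 0.83).

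Other miRNAs described as derived from LINE-2 elements were taken for comparison: the arms of miR-374a, miR-374b and miR-493, and miR-421-3p, 7 in all, each tested. From telogen to catagen 1 of the 7 passed the test, miR-374a-3p, which rose by 0.51 (standard error 0.12, adjusted p = 0.00606 in edgeR's quasi-likelihood test), and none reached the 2-fold limit as well. Of all 300 miRNAs 105 (35%) passed in either direction. The median of the 7 was -0.01, beside 0.14 for the 6 family members. The arm ratio rose by 1.03 in miR-374a (adjusted p = 0.00128 in limma), a shift of the size found in miR-708, and changed by -0.39 in miR-374b (adjusted p = 0.202) and by 0.19 in miR-493 (adjusted p = 0.489), neither past the threshold.

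Follicles are a mixture of cell types, and in bulk libraries fewer cells of a type and less RNA per cell cannot be told apart. Among miRNAs taken as markers, the epithelial miR-203 was abundant in every library (43797 to 82083 TPM). From telogen to catagen 2 of 4 epithelial markers passed the test, 1 higher and 1 lower, and 4 of 5 mesenchymal markers, 2 higher (miR-143-3p and miR-145-5p) and 2 lower (miR-199a-3p and miR-214-3p). Their summed TPM was 66394 to 92145 in catagen against 56190 to 95154 in telogen for the epithelial and 109737 to 139125 against 110245 to 132803 for the mesenchymal list. Most of the mesenchymal sum came from miR-143-3p (67084 to 110365 TPM over the 12 libraries). The study's in situ hybridization placed this miRNA in transit-amplifying matrix cells of SHFs, so the list does not read mesenchyme alone. Among the 3 leukocyte markers, miR-223-3p and miR-223-5p, the arms of 1 precursor, were lower in catagen. The remaining marker, miR-150, did not pass (adjusted p = 0.884 in edgeR's quasi-likelihood test). The summed TPM of this list was 89.1 to 184 in catagen against 181 to 267 in telogen. Of the erythrocyte markers 1 of 2 was lower (5.41 to 26.4 against 27.9 to 115). Beside these counts, 105 of all 300 miRNAs (35%) passed in either direction. None of 4 tested muscle markers (2411 to 3485 against 1809 to 3550) and neither of the endothelial ones (8819 to 11616 against 9022 to 12699) passed, and miR-206 of muscle was at 0 in some libraries. Their part in the shifts of the family was not tested.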

How the data were processed

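Small RNA libraries of SHFs were prepared and sequenced by the authors, who trimmed adapters, mapped reads to CHIR_2.0 and quantified miRNAs with Bowtie 0.12.9. The authors deposited raw counts and TPM values of 376 miRNAs per library. How reads matching several miRNAs were counted is not given in the sources used here. Each deposited TPM value equalled the count per 1000000 miRNA counts of its library, within 0.005.

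Groups were taken from the sample titles. Counts were analysed with edgeR 4.0.16 in R 4.3.3 (quasi-likelihood test, TMM, above 5 CPM in at least 2 libraries, 1 fit of 4 groups, Benjamini-Hochberg over 300 miRNAs, called at an adjusted p under 0.05 and at least 2-fold). Arm ratios, log2 of the 3p count plus 1 over the 5p count plus 1, were analysed with limma 3.58.1 over 82 precursors. Differences between precursors were tested by exact permutation of libraries. Sex was tested with month as a term, and its interaction with phase in a further fit. Alternatives used library totals, RLE factors, DESeq2 1.42.0, other filters and pseudocounts, sex as a block, 6 month groups, fits of the compared groups alone and the omission of each library. The pipelines were tested on simulated data.

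Members and lists were chosen with earlier results of these data known. A planned test of miR-28 and miR-708 between May and September is not printed, since the choice of the family used that contrast. Named besides the members were, for each member, up to 3 miRNAs of highest correlation, the 3 precursors with the strongest rise and the 3 with the strongest fall of the arm ratio, and the other LINE-2 derived miRNAs. The labels carry no batch, and precision is limited by 4 or 2 libraries per group.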

Additional observations from a re-analysis of the deposited data

Results flagged for a closer look

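In catagen the male November library stood apart for miR-28-3p, at 1108 TPM against 828 to 844 in the other 3 libraries, a gap of 0.94 of the range of the group. It was the 1 such case among 30 groups of 4 libraries checked, and chance gives about 1 in 20. Without this library the telogen to catagen rise of miR-28-3p was 0.28 (adjusted p = 0.112 in edgeR's quasi-likelihood test).

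The 5p arms of miR-28 and miR-151 moved in opposite directions in the sexes from May to September. The TPM of miR-28-5p changed by -47.6 in the female libraries and was higher in September in the male ones (129 and 153). On the log2 TMM CPM scale both sexes were higher in September for this arm (0.07 and 0.74). In log2 TMM CPM miR-151-5p changed by -0.23 in the female and by 0.19 in the male libraries, while its TPM was lower in September in both. There is 1 library of each sex per month, and these differences were not tested.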

How the results depend on the processing

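The arm ratio calls of miR-151 (1.36 to 1.37) and miR-708 (1.002 to 1.003) held under all 8 alternatives and, as reported above, without any 1 library. That of miR-28 passed the threshold with 5 added to each arm (0.52, adjusted p = 0.0487) and with at least 10 counts of both arms in every library (0.52, adjusted p = 0.0444), and was 0.39 to 0.66 with single libraries left out. The differences between precursors kept their sign with single libraries left out (0.65 to 0.98 for miR-151 over miR-28, 0.41 to 0.61 for miR-708 over miR-28), at an adjusted p of 0.0857 by exact permutation in each case for these pairs. Over the alternatives 23 to 48 miRNAs and 32 to 41 precursors were called between telogen and catagen, and 23 to 37 and 27 to 45 with 1 library left out. Of the miRNAs called, 11 of 36 were higher with RLE factors and 11 of 38 with DESeq2. The rise of miR-151-3p kept an adjusted p under 0.05 in all 8 alternatives, and that of miR-708-3p missed it with library totals and in the fit of the compared groups alone (0.63, adjusted p = 0.0518). That of miR-28-3p missed it in 6 of 8, and the fall of miR-708-5p passed it with library totals, RLE factors (-0.36, adjusted p = 0.0464) and DESeq2 (-0.36, adjusted p = 0.0287). Sex differences, none past the threshold, changed sign with library totals for miR-28-3p (0.0461), miR-28-5p (0.0273) and miR-708-5p (0.0472), without March for miR-151-5p (0.0459), miR-28-3p (0.149), miR-28-5p (0.0894) and miR-708-5p (0.0792), and without May for miR-28-5p (0.0292). The causes of these changes were not tested. With sex as a block no member changed its side of the threshold in the telogen to catagen tests.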
